A study of Mus musculus with 8 samples.

Results

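The 32 genes described here are immediate early genes and heat shock genes, taken by name from the 53715 genes counted in each library. They comprise 8 subunits of the transcription factor AP-1, 6 zinc-finger factors of the EGR and KLF families, 3 NR4A orphan nuclear receptors, 7 feedback phosphatases and other restraints, 3 IER genes and 5 heat shock chaperones. All 32 were found by symbol, 29 had enough counts to be tested, and Egr2, Egr3 and Nr4a3 did not. RNA was sequenced from haematopoietic stem cells (HSCs), sorted from mouse bone marrow as cells without lineage markers that carried Sca-1, Kit and CD150 and lacked CD48. Of the 8 mice, 4 were wild type and 4 were labelled as Gata2; Mx1-Cre heterozygotes, with 1 library per mouse. All mice were between 8 and 12 weeks old, and both genotypes received 6 doses of pIpC, a double-stranded RNA that raises interferon. Mx1-Cre is a recombinase gene under an interferon-inducible promoter, active in blood cells and in other tissues after pIpC. The labels name it for the heterozygotes only. Whether the wild-type mice carried it, how long after the last dose cells were sorted and which mice were littermates was not stated in the sources used here.

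Immediate early genes are transcribed within minutes of a stimulus, without new protein synthesis, when kinase cascades activate factors already bound at their promoters. Fos and Jun proteins pair to form AP-1, EGR and KLF zinc-finger proteins and the NR4A receptors act beside it, and DUSP phosphatases and the RNA-binding protein of Zfp36 switch the response off again. Heat shock chaperones fold proteins. Hspa8 is made all the time, whereas Hspa1a and Hspa1b are switched on by the factor HSF1 under proteotoxic stress. In HSCs several of these genes are tied to quiescence, and as a class they are known to respond to tissue dissociation and sorting.

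Totals ran from 16750778 to 22861884 fragments assigned to genes, so 3 fragments, taken as the detection floor, were 0.131 to 0.179 CPM (counts scaled to a fixed library size). Of 11 HSC markers 11 were detected, with a summed level of 1350 to 1836 CPM in wild-type and 1304 to 1612 CPM in Het-labelled libraries. Of 8 lymphoid markers, 4 had 0 counts in all 8 libraries, among them Cd3e, Cd3g and Ncr1. The other 4 were detected, and the list summed to 112 to 133 CPM in wild-type and 107 to 129 CPM in Het-labelled libraries. Values per library are listed below by replicate, 1 to 4, wild type first. Gata2 itself was not lower under the heterozygote label, at 30.0, 45.2, 29.1 and 38.5 CPM in the wild-type and 35.4, 61.8, 36.7 and 45.1 CPM in the Het-labelled libraries. Directions given below therefore follow the deposited labels, and the libraries are called Het-labelled. In bulk RNA, fewer cells that transcribe a gene and less RNA of it per cell cannot be told apart. Where mice of a genotype were not independent, the p-values measure only the spread between these samples.

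The genes differed widely in abundance. On a per-length scale (TPM, counts scaled to gene length and library size, averaged over the 8 libraries) the most abundant was Hspa8, the constitutive Hsp70, at 1829 TPM. Hsp90aa1, a cytosolic Hsp90, followed at 861 TPM, Dusp1 at 703 TPM, Fos at 299 TPM, Ier2 at 291 TPM, Klf6 at 192 TPM and Dnajb1 at 188 TPM. Ranges over libraries overlapped between neighbours: Dusp1 (62.1 to 1898 TPM) spanned that of Hsp90aa1 (591 to 1234 TPM), Fos (10.3 to 988 TPM) spanned that of Ier2 (149 to 678 TPM), and Klf6 (101 to 309 TPM) spanned that of Dnajb1 (126 to 288 TPM). The order within each of these pairs was not fixed by these data. The inducible pair stood low, Hspa1a at 2.81 TPM and Hspa1b at 3.65 TPM. At the bottom, Egr3 had 1 fragment in 1 library, Egr2 had 8 fragments in 1 library, and Nr4a3 had 10 fragments in 1 library and 6 in another.

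**Figure D1:**
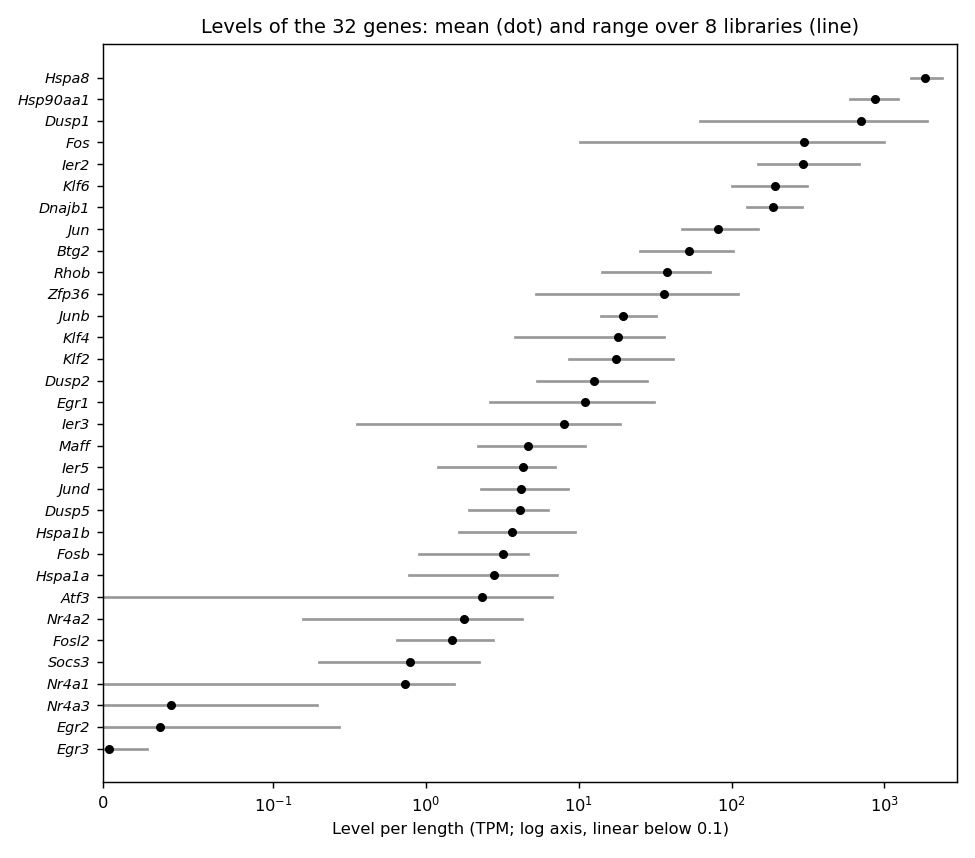
Level per length (TPM, log axis that is linear below 0.1) of the 32 genes, with the dot at the mean and the line spanning the lowest to the highest of the 8 libraries. Hspa8 lies highest at 1829 TPM with a short line, whereas the line of Fos runs from 10.3 to 988 TPM.

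Genotype did not separate these genes. None of the 29 tested genes differed between Het-labelled and wild-type libraries at an adjusted p under 0.05 by edgeR's quasi-likelihood test, and among all 13992 genes 0 (0%) did. At an unadjusted p under 0.05 the count was 0 of 29, beside 5.66% of all genes. In 0 of 29 genes did the 4 libraries of 1 genotype lie wholly above or below those of the other, beside 3.47% of all genes. The direction was mixed, with 15 genes higher and 14 lower under the heterozygote label, where 48% of all genes were higher. By role, 4 of 8 AP-1 genes were higher, 2 of 4 tested EGR and KLF genes, 1 of 2 tested NR4A genes, 3 of 7 restraints, 1 of 3 IER genes and 4 of 5 chaperones. The median log2 fold change was 0.08, and that of all genes was -0.02. With DESeq2, which called 0.208% of all genes, 0 of the 29 passed, and Hsp90aa1 and Hspa1b had an unadjusted p under 0.05. Adjusted p-values of the 29 genes ran from 0.850 to 0.995 with edgeR, and the lowest with DESeq2 was 0.530. By exact permutation of the genotype labels over mean log2 CPM (two-sided), the smallest p among them was 0.114, and 70 assignments cannot give less than 0.0286. The 95% intervals remained wide, that of the Fos fold change running from 0.151 to 10.1, so differences of a few fold were not detectable for the most variable genes.

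**Figure D2:**
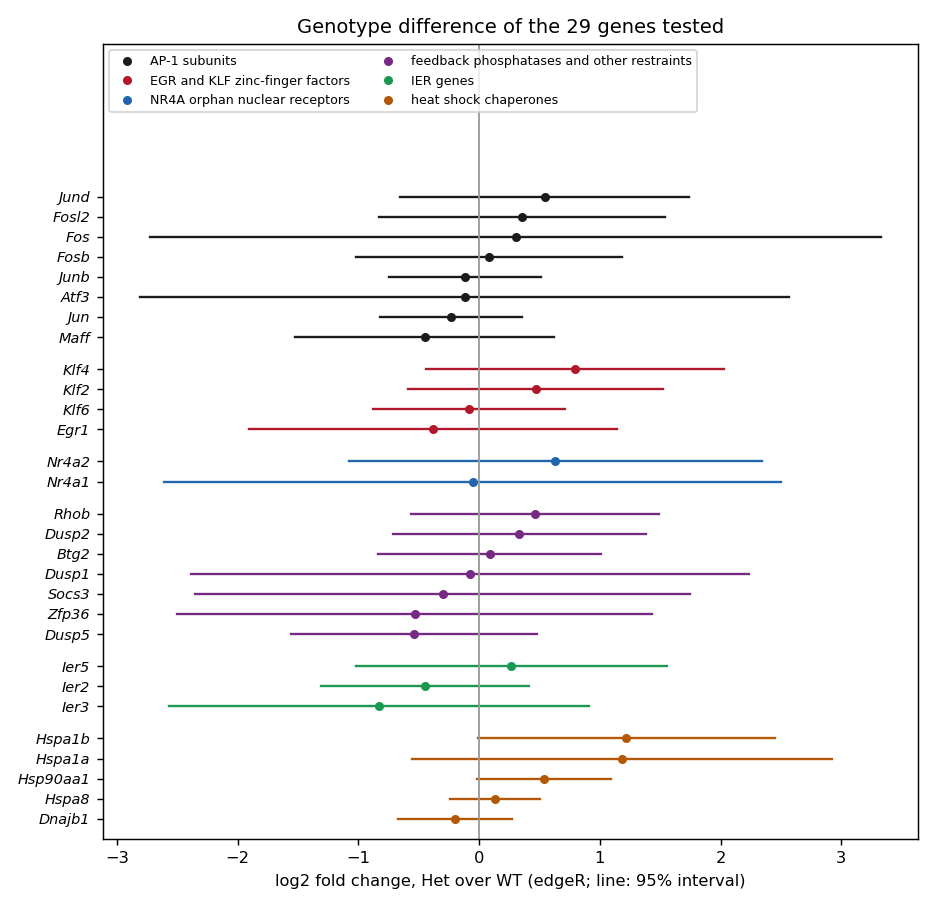
Log2 fold change of the Het-labelled over the wild-type libraries for the 29 tested genes, by role, with the dot at the edgeR estimate and the line at its 95% interval. Every interval includes 0, and those of Hspa1b and Hsp90aa1 reach it only at their lower ends, -0.01 and -0.02.

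Mice of the same genotype differed widely in these genes. The SD of log2 CPM between mice of 1 genotype had a median of 0.753 over the 29 genes, beside 0.462 over all genes, and 24 of the 29 lay above that value. Low counts raise such an SD, so the same was read among the 3802 genes whose mean reached 50 CPM. There the 9 immediate early and heat shock genes had a median of 0.627, beside 0.233 for the 3802, and 9 of 9 lay above it. Fos ranked 4 of these 3802 genes by spread, Dusp1 ranked 6, Btg2 19, Ier2 29 and Klf6 41. Of the 2244 genes whose mean reached 100 CPM, Fos was the most variable and Dusp1 ranked 3.

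**Figure D3:**
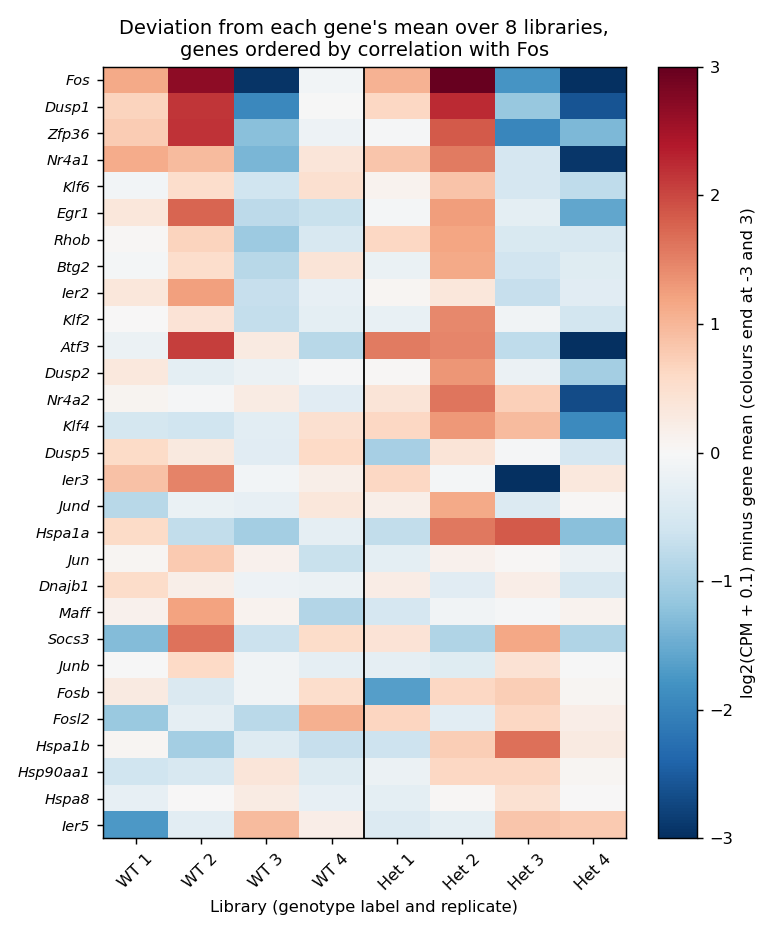
Deviation of each of the 29 tested genes from its own mean over the 8 libraries, as log2(CPM + 0.1), with genes ordered by their correlation with Fos and the genotypes parted by a line. Wild-type replicate 2 and Het-labelled replicate 2 are in shades of red for the upper 9 genes, and wild-type replicate 3 and Het-labelled replicates 3 and 4 in shades of blue.

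Among the AP-1 subunits Fos had the largest within-genotype SD of log2 CPM, 2.67, followed by Atf3 with 1.93, and Junb had the smallest, 0.370. Fos (ENSMUSG00000021250.13, chromosome 12 from 85473890 to 85477273, plus strand, GRCm38) encodes a subunit that forms AP-1 only together with a Jun protein. It measured 216, 623, 12.6 and 92.5 CPM in the wild-type mice and 202, 925, 28.8 and 9.66 CPM in the Het-labelled mice. Replicate 2 was the highest of both genotypes and the groups overlapped over nearly their whole range, with 95.8-fold between the highest and the lowest mouse. Group means were 236 ± 271 CPM for wild type and 291 ± 431 CPM for the Het label (SD, n = 4 each), and the log2 fold change was 0.30 (SE 1.34). Its sign turned to -1.56 without Het-labelled replicate 2 and to -0.09 without wild-type replicate 3. Jun (ENSMUSG00000052684.4), the main partner of Fos, measured 98.9, 165, 105 and 59.9 CPM in the wild-type and 77.8, 104, 98.5 and 84.9 CPM in the Het-labelled libraries. Junb (ENSMUSG00000052837.6), a Jun protein that restrains HSC proliferation, measured 16.6, 25.4, 15.6 and 13.9 CPM and then 13.8, 12.9, 22.7 and 16.6 CPM. Both genes overlapped between genotypes and spanned less than Fos, 2.75-fold for Jun and 1.97-fold for Junb from lowest to highest. Their SDs were still above those of typical genes of their level. Jun had 0.443, beside a median of 0.233 for genes whose mean reached 50 CPM. Junb had 0.370, beside 0.311 for genes whose mean reached 10 CPM. Their log2 fold changes were -0.23 (SE 0.26) and -0.12 (SE 0.28).

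The other AP-1 genes were scarcer. Jund (ENSMUSG00000071076.6), a Jun protein with a steady level in many cells, measured 1.36, 2.18, 2.10 and 3.21 CPM in wild-type and 2.85, 5.68, 1.85 and 2.56 CPM in Het-labelled libraries (log2 fold change 0.55, SE 0.54). Of all 75-base windows of its transcript, 45.9% also occur in transcripts of another gene, and fragments that map to several places were not counted, so its level is uncertain. Maff (ENSMUSG00000042622.14), a small Maf protein without an activation domain, measured 4.67, 9.84, 4.54 and 2.24 CPM and then 2.95, 3.91, 4.14 and 4.55 CPM (log2 fold change -0.45, SE 0.48). Wild-type replicate 2 alone stood above the other 7 libraries in Maff, and without it the log2 fold change was 0.04. Fosb ranged from 2.15 to 11.8 CPM and Fosl2 from 2.23 to 10.5 CPM. Atf3, a stress-induced partner of Jun, reached 4.95 CPM in wild-type replicate 2 and had 0 fragments in Het-labelled replicate 4.

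The promoters were read for short motifs. Of the 32 genes, 27 had an entry in the RefSeq promoter table of GRCm38.p6. Each window reached from 250 bases before to 50 bases after the start. The cyclic AMP response element TGACGTCA, bound by CREB and ATF proteins, occurred on either strand in 1.79% of all 32851 promoters and in Btg2, Dusp1 and Maff. Its core TGACG, which any full element also holds, occurred in 20.8% of all promoters and in 16 of the 27 genes. Percentages here count promoter entries, whereas a gene was counted once if any entry of it matched. TATAAA occurred in 13.6% and in Fos, Junb and Nr4a2, and the CArG box of serum response factor in 1.63% and in Dusp5, Egr2 and Zfp36. These matches describe letters, not bound sites. Elements outside the windows were not read, so a gene without a match, such as Fos for the CArG box, does not thereby lack the element. Fos and Junb, the AP-1 subunits of largest and smallest SD between mice (2.67 and 0.370), are shown for the 250 bases before the start, with TGACG in capitals and, in Fos, TATAAA. In Fos (chr12:85473640-85473889, plus strand) TGACG begins 129 and 66 bases before the start and TATAAA 33 bases before it. In Junb (chr8:84978749-84978998, minus strand) TGACG begins 106 bases before the RefSeq start, and TATAAA begins at the first base after it, outside the stretch shown. GENCODE starts Junb further along, at 84978718, so this TATAAA lies before the GENCODE start, as that of Fos does.
Fos: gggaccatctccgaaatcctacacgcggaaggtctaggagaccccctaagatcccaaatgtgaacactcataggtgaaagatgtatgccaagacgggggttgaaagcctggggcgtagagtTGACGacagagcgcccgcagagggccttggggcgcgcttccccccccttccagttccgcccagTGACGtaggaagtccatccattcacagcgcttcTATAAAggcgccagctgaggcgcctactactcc
Junb: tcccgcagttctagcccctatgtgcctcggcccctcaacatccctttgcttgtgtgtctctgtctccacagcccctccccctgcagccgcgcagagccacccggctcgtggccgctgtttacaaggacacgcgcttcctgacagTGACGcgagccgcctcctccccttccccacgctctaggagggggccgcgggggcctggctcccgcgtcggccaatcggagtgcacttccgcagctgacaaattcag

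In the EGR and KLF families Egr1 and Klf6 moved among mice as Fos did. Egr1 (ENSMUSG00000038418.7), a zinc-finger factor that holds HSCs in quiescence and in the niche, measured 17.9, 48.0, 8.22 and 8.88 CPM in the wild-type libraries. The Het-labelled libraries held 13.5, 34.0, 11.6 and 4.70 CPM of it. Replicate 2 was again the highest of both genotypes, the groups overlapped, and the log2 fold change of -0.38 (SE 0.68) became 0.46 without wild-type replicate 2. Klf4 (ENSMUSG00000003032.8), a factor of myeloid differentiation and reprogramming, measured 12.4, 11.6, 14.3 and 24.8 CPM in wild-type and 27.3, 43.6, 34.4 and 4.65 CPM in Het-labelled libraries. Of the 4 Het-labelled libraries 3 lay above all wild-type ones in Klf4 and replicate 4 lay below all of them. The log2 fold change of 0.80 (SE 0.55, adjusted p = 0.855 by edgeR, 0.625 to 1 over the alternatives) did not pass. Without Het-labelled replicate 4 it was 1.15 and did not pass either (adjusted p = 0.754 by edgeR). Klf6 ranged from 178 to 540.5 CPM and Klf2, a factor of cell quiescence, from 6.64 to 30.3 CPM, each with Het-labelled replicate 2 highest. Egr2 and Egr3, relatives of Egr1, were at or near 0.

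The NR4A receptors, which need no ligand and restrain HSC proliferation, were expressed at a low level. Nr4a1 ranged from 0 CPM in Het-labelled replicate 4 to 2.14 CPM in Het-labelled replicate 2. Nr4a2 ranged from 0.256 to 6.84 CPM with the same libraries at the ends. Their log2 fold changes were -0.05 (SE 1.15) and 0.63 (SE 0.77). Nr4a3 was at 0 in 6 of the 8 libraries.

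Of the genes that end the response, Dusp1 followed Fos almost exactly. Dusp1 (ENSMUSG00000024190.6, chromosome 17 from 26505590 to 26508519, minus strand, GRCm38) encodes a nuclear phosphatase that inactivates the MAP kinases upstream of Fos. It measured 643, 1769, 104 and 396 CPM in the wild-type mice and 617, 1896, 183 and 67.0 CPM in the Het-labelled mice. The 8 libraries had the same order in Dusp1 as in Fos, the highest 28.3-fold above the lowest, and the log2 fold change was -0.08 (SE 1.02). Zfp36, whose protein destroys AU-rich mRNAs including those of cytokines, ranged from 7.46 to 131 CPM. Btg2, an antiproliferative gene, ranged from 28.6 to 112 CPM. Rhob, a small GTPase gene, ranged from 14.0 to 68.0 CPM. The highest of all 3 was replicate 2 of a genotype, wild type for Zfp36 and Het-labelled for Btg2 and Rhob. Dusp2, a phosphatase of immune cells, ranged from 4.29 to 22.4 CPM, and Socs3, an inhibitor of cytokine signalling, from 0.207 to 2.23 CPM. Dusp5 (ENSMUSG00000034765.6), a phosphatase specific for ERK, measured 5.54, 4.56, 2.92 and 5.67 CPM in wild-type and 1.80, 4.89, 3.59 and 2.56 CPM in Het-labelled libraries. The groups of Dusp5 overlapped (log2 fold change -0.54, SE 0.46), and 19.7% of its windows also occur in another gene's transcript. The promoters of Dusp1 and Btg2, which hold the full element TGACGTCA, are shown with that element and TGACG in capitals. Across the mice these 2 genes had r = 0.996 and 0.845 with Fos, whereas Maff, which also holds the full element, had r = 0.189. Whether the element bears on likeness to Fos was not tested. Dusp1 (chr17:26508520-26508722, minus strand) has TGACG from 191 and TGACGTCA from 143 bases before the RefSeq start, and the 47 bases nearest that start are left out because GENCODE places them in an exon. Btg2 (chr1:134079156-134079405, minus strand) has the full element from 166 bases before it.
Dusp1: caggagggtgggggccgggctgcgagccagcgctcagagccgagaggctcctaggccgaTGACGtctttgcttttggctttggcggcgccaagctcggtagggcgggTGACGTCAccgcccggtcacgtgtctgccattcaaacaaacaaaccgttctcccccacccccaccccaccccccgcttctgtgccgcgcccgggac
Btg2: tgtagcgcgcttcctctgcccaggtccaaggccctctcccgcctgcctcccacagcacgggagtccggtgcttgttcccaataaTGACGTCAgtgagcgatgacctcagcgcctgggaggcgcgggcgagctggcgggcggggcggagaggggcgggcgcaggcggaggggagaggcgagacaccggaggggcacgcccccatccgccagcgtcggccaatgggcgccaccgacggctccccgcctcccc

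The IER genes, small proteins named for their early response, went separate ways. Ier2 (ENSMUSG00000053560.4), a nuclear factor, measured 192, 357, 94.5 and 127 CPM in wild-type and 159, 192, 93.4 and 119 CPM in Het-labelled libraries. The lowest was replicate 3 in both genotypes, and the log2 fold change of -0.45 (SE 0.39) became 0.04 without wild-type replicate 2. Ier3 (ENSMUSG00000003541.6), a regulator of cell survival, measured 4.75, 7.32, 2.39 and 2.86 CPM and then 3.95, 2.45, 0.163 and 3.17 CPM, the value of Het-labelled replicate 3 being 3 fragments. Its log2 fold change was -0.83 (SE 0.78) and the groups overlapped. Ier5, a co-activator of HSF1, ran against Fos, with the lowest level, 1.40 CPM, in wild-type replicate 1 and the highest, 9.51 CPM, in wild-type replicate 3.

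**Figure D4:**
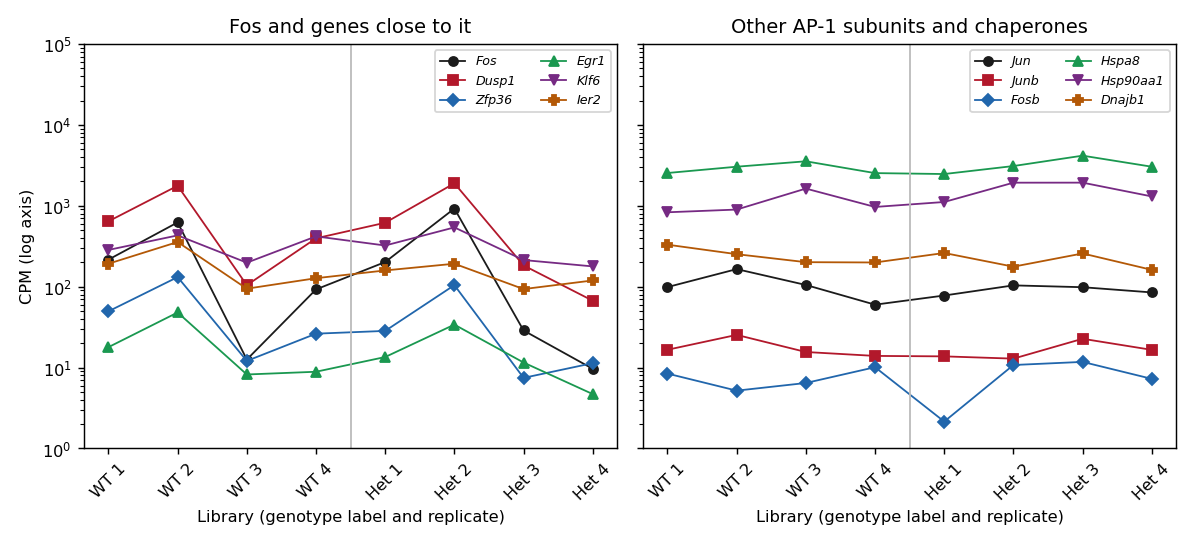
CPM (log axis) of 12 genes in the 8 libraries, with lines only to help follow a gene and a grey line between genotypes. Fos, Dusp1, Zfp36 and Egr1 peak in replicate 2 of both genotypes, while Jun, Junb and Hspa8 stay within 2.75-fold, 1.97-fold and 1.69-fold.

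The chaperones did not share the Fos pattern, and none of the 5 passed between genotypes. Hspa1a (ENSMUSG00000091971.3, chromosome 17 from 34969190 to 34972156) and Hspa1b (ENSMUSG00000090877.3, chromosome 17 from 34956436 to 34959238), both on the minus strand, are neighbouring copies of inducible Hsp70. Hspa1a measured 3.55, 1.36, 1.10 and 1.94 CPM in the wild-type mice and 1.35, 7.21, 8.66 and 0.920 CPM in the Het-labelled mice. Hspa1b measured 3.51, 1.6, 2.53 and 2.02 CPM and then 2.15, 5.62, 10.7 and 4.04 CPM. Het-labelled replicates 2 and 3 were high in both genes, while replicate 1 lay among the wild-type libraries. The 2 copies differed in Het-labelled replicate 4, the lowest library in Hspa1a but above all wild-type libraries in Hspa1b. The log2 fold change was 1.19 (SE 0.78) for Hspa1a and 1.22 (SE 0.55) for Hspa1b. Hspa1b had the smallest unadjusted edgeR p of the 29, 0.0517, but an adjusted p of 0.850 (0.468 to 1 over the alternatives). Hsp90aa1 (ENSMUSG00000021270.13) measured 831, 898, 1632 and 967 CPM in wild-type and 1114, 1930, 1932 and 1305 CPM in Het-labelled libraries. All Het-labelled libraries lay above 3 of the wild-type ones in Hsp90aa1, and wild-type replicate 3 lay among them. Its log2 fold change was 0.54 (SE 0.25), with an unadjusted edgeR p of 0.0571 and an adjusted p of 0.850 (0.181 to 1 over the alternatives). Dnajb1 (ENSMUSG00000005483.10), the co-chaperone that hands clients to Hsp70, measured 330.5, 252, 201 and 199 CPM and then 261, 177, 258 and 161 CPM, with overlapping groups and a log2 fold change of -0.20 (SE 0.21). Hspa8, at 2469 to 4165 CPM, had the smallest spread of the 29 genes, an SD of 0.274, and a log2 fold change of 0.13 (SE 0.17).

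The counts of the Hsp70 and Hsp90 genes are uncertain because fragments mapping to several places were left out. Windows of 75 bases shared with other genes made up 61.7% of the Hspa1a transcript, 55.8% of Hspa1b, 53.1% of Hsp90aa1 and 41.3% of Hspa8, and 0% of Fos, Dusp1, Egr1, Ier2 and Dnajb1. Hspa8 also shares 6.09% of its exon bases with the small nucleolar RNA genes Snord14c, Snord14d and Snord14e on the same strand. The promoters of Hspa1a (chr17:34972157-34972406) and Hspa1b (chr17:34959239-34959488) are shown because they are nearly one sequence: 247 of the 250 bases before the start are identical and 3 differ. Capitals mark the inverted pair of heat shock units, GAA and TTC parted by any 2 bases, which begins 104 bases before both starts. This pair, read on both strands, occurred in 7.86% of all promoters and among the 27 in Fosl2, Hspa1a, Hspa1b and Jun.
Hspa1a: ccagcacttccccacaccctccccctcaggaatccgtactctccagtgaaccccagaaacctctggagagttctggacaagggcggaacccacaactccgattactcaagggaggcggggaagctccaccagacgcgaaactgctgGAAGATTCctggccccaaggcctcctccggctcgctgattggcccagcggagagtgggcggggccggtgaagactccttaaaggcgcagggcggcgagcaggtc
Hspa1b: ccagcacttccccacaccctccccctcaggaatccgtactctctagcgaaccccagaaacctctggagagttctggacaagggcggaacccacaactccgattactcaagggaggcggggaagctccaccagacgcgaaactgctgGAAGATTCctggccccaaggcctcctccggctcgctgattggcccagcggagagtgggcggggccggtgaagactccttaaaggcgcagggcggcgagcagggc

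Which genes moved together across the 8 mice was tested on 15 pairs, with Pearson's r and Spearman's rho of log2 CPM (prior count 2). Each p was exact and two-sided, by permutation over 40320 pairings, with adjustment over the 15 pairs. The pairs were chosen with earlier results of these data known, so the p-values are not those of an independent test. Log2 Fos was spread without clusters over 3.29, 3.66, 4.85, 6.53, 7.66, 7.76, 9.28 and 9.85. Fos and Dusp1 had r = 0.996 (exact permutation p = 2.48e-05, adjusted p = 0.000372) and rho = 1 (adjusted p = 0.000744), and r = 0.993 without the 2 libraries farthest from the median of Fos, wild-type replicate 3 and Het-labelled replicate 4. Among 13991 genes Dusp1 ranked 1 in likeness to Fos. Nr4a1 had r = 0.927 (adjusted exact p = 0.000558, rho = 0.976), Zfp36 had r = 0.928 (0.00874, rho = 0.905) and Egr1 had r = 0.905 (0.00874, rho = 0.952). Without the same 2 libraries these were 0.936, 0.968 and 0.844. Btg2 with r = 0.845 and rho = 0.857, and Ier2 with r = 0.832 and rho = 0.833, had an adjusted exact permutation p of 0.0218, and without the 2 libraries r was 0.821 and 0.846. Atf3 had r = 0.770 (adjusted exact permutation p = 0.0424), but its rho of 0.690 did not pass (adjusted p = 0.149), and r was 0.820 without the 2 libraries. The same pairs kept their side of the threshold as deviations from the genotype mean, where Fos and Dusp1 had r = 0.997.

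Other partners of Fos did not move with it. Jun had r = 0.328 and rho = 0.357 (adjusted exact permutation p = 0.561 and 0.577), Junb had r = -0.05 and rho = -0.14 (0.895 and 0.806), Fosb had r = -0.13 and rho = 0.0238 (0.849 and 0.977), and Hspa1a had r = 0.337 and rho = 0.524 (0.550 and 0.369). The signs for Jun, Junb and Fosb turned when single libraries were left out, and r without the 2 farthest libraries was 0.493, -0.21, -0.24 and -0.24 in the same order. Among the chaperones, Hspa1a and Hspa1b had r = 0.775 (adjusted exact permutation p = 0.0424), but rho = 0.429 (adjusted p = 0.499), and r = 0.0816 without Het-labelled replicates 2 and 3, so the relation rests on those mice. Hspa1a with Hsp90aa1, Hspa8 and Dnajb1 had r = 0.466, 0.362 and 0.230 and rho = 0.214, 0.310 and 0.310, with adjusted exact permutation p-values of r of 0.411, 0.550 and 0.667. Without those 2 mice r was -0.75, -0.63 and 0.769. In all, 8 of the 15 pairs passed by r. With single libraries left out, Fos with Dusp1, Nr4a1, Zfp36 and Egr1 passed each time. Ier2 did not pass without wild-type replicate 3 (r = 0.790) or Het-labelled replicate 3 (r = 0.820), nor Btg2 without wild-type replicate 3 (r = 0.794), Het-labelled replicate 2 (r = 0.786) or Het-labelled replicate 3 (r = 0.830). Among these 8 sets of 7 libraries Atf3 passed only in that without wild-type replicate 3 (r = 0.913), and the Hspa1a and Hspa1b pair only in that without Het-labelled replicate 4 (r = 0.919).

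**Figure D5:**
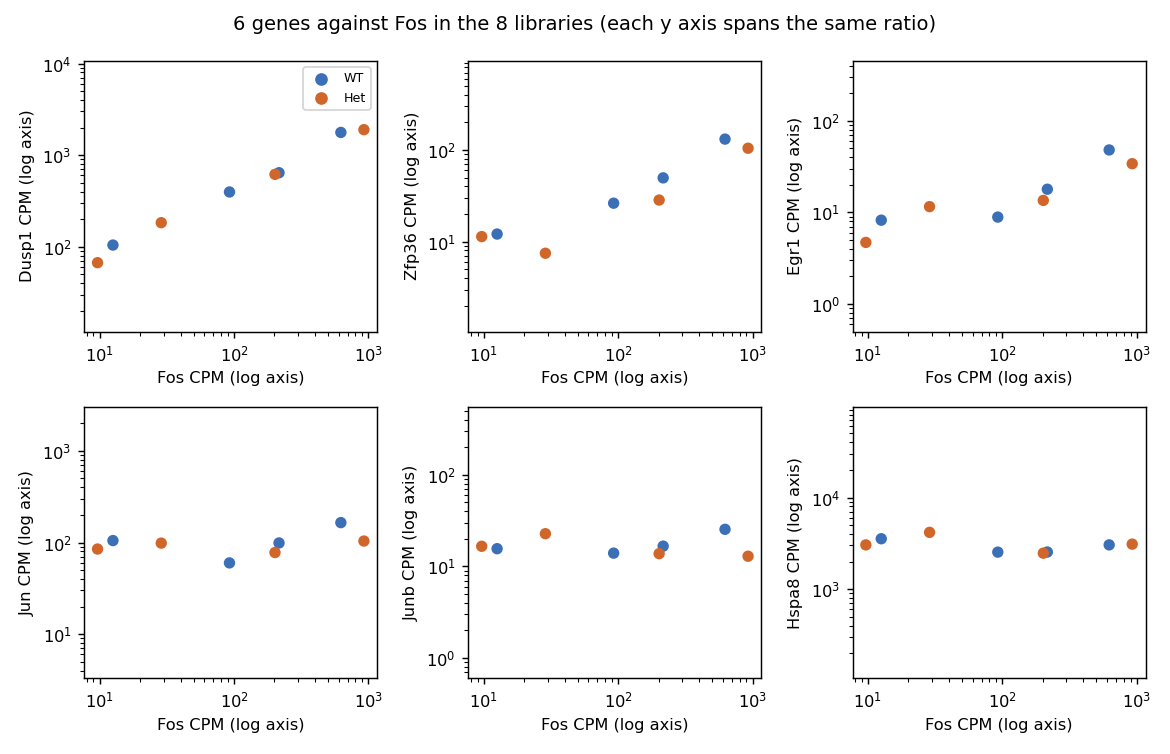
CPM of 6 genes against Fos CPM in the 8 libraries (both axes log), each y axis spanning the same ratio, with points coloured by genotype label. Dusp1 rises on 1 line with Fos (r = 0.996) with both genotypes mixed along it, while Junb (r = -0.05) and Hspa8 (r = -0.43) do not.

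Ranked against every gene, 9 of the 28 others lay in the 1% of genes most like Fos, 139 of 13991. They were Dusp1, Zfp36, Nr4a1, Klf6, Egr1, Rhob, Btg2, Ier2 and Klf2, in that order, from r = 0.996 to r = 0.828. At the other end were Ier5 with r = -0.72 and Hspa8 with r = -0.43. Over all 406 pairs of the 29 genes the median r was 0.212, beside -0.004 for all pairs of tested genes, and 8.87% of pairs had r above 0.8, beside 1.55%. These correlations describe 8 libraries, and 2 genes of a pair share the library, its depth and its scaling.

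Other properties of the libraries moved in part with Fos. The share of counts from the mitochondrial genome was 0.88%, 0.98%, 1.66% and 2.07% in the wild-type and 1.45%, 1.31%, 1.45% and 2.28% in the Het-labelled libraries, with r = -0.69 against log2 Fos. The correlation of each library's deviation with GC content across genes was 0.185, 0.236, -0.168 and 0.0437 and then -0.0321, -0.0927, -0.101 and -0.0366, with r = 0.528. After correction of every library for GC content and length, 8 pairs still passed. The total count had r = -0.40. The summed level of 9 granulocyte and monocyte markers, of which 9 were detected, ran from 208 to 325 CPM in wild-type and from 180 to 300.2 CPM in Het-labelled libraries (r = -0.67), against 0.568 for the HSC markers. These were the marker lists with the largest r in size. The others ran from -0.32 for stromal and endothelial to 0.229 for macrophage markers. The part of these library properties and marker levels in the spread of Fos was not tested. Each sex, read from Xist and Y-linked genes, gave 4 libraries, too few for a correlation of their own, and Fos ranged from 9.66 to 216 CPM in females and from 12.6 to 925 CPM in males. Dusp1 ranged from 67.0 to 643 CPM in females and from 104 to 1896 CPM in males, and had the order of Fos within both. Processing dates of the sorts are not given in the sources used here.

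No gene of the wider lists passed between genotypes either. Of 45 other immediate early and early response genes 37 were tested, of which 17 were higher and 20 lower under the Het label (48% of all genes were higher), 0 passed and the median log2 fold change was -0.08, beside -0.02 for all genes. An unadjusted edgeR p under 0.05 was reached by 4 of the 37, beside 5.66% of all genes, and these 4 were lower. Mafg, a small Maf gene, differed by -1.03 (SE 0.36), Irf1, an interferon response factor, by -0.59 (SE 0.21), Klf10, a target of TGF-beta, by -0.63 (SE 0.25), and Ppp1r15a, a phosphatase subunit of the stress response, by -0.89 (SE 0.39). Each had an adjusted p of 0.850. Csrnp1 with r = 0.841 and Gadd45g with r = 0.889 were the genes of this list with r above 0.8 to Fos. Of 21 upstream kinases and factors, 11 were higher and 10 lower with 0 passing, and Mapk3, the gene of ERK1, had the smallest unadjusted p (log2 fold change -0.83, SE 0.33). It was followed by Map2k1 at -0.66 (SE 0.30), Crem at 0.80 (SE 0.41) and Elk3 at -0.38 (SE 0.24). Map3k8, a kinase upstream of ERK, had r = 0.869 with Fos. Of 32 other chaperone genes 31 were tested, 20 higher and 11 lower with 0 passing, where 48% of all genes were higher. Hsp90ab1, the constitutive Hsp90, differed by 0.47 (SE 0.17), at an unadjusted edgeR p under 0.05. Ubb differed by 0.26 (SE 0.13) and Dnaja1 by 0.33 (SE 0.17). The mitochondrial co-chaperonin Hspe1 had r = -0.80 with Fos.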

How the data were processed

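RNA of sorted HSCs from 8 mice was sequenced as 75-base paired reads after ribosomal RNA depletion, in strand-specific libraries, per the labels' protocols. Trimming used Trim Galore with cutadapt, and alignment used STAR 2.5.1b on build GRCm38, per the submitters' processing notes. The deposited values are raw fragment counts per gene, not normalized by the authors, made with featureCounts on GENCODE M17 exons per the file headers, which name version 1.6.2 where the notes name 1.5.1. Fragments mapping to several places were not counted, per the options in the headers. Groups and replicate numbers came from the library descriptions. Symbols were looked up in GENCODE M21, also GRCm38, which held 53620 of the identifiers and lacked 95. No 2 libraries agreed within sampling noise (lowest chi-square per degree of freedom 37.9). Without molecular identifiers PCR copies were not removed, and the floors of 3 counts reflect counting error alone.

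Counts were tested over all genes with edgeR 4.0.16 in R 4.3.3 (filterByExpr by genotype, TMM factors 0.946 to 1.08, robust quasi-likelihood fit, two-sided, Benjamini-Hochberg over 13992 genes, threshold 0.05), after a check on simulated data. The biological coefficient of variation was 0.511. CPM are TMM-scaled, log2 CPM carry a prior count of 2, and TPM used the gene lengths in the files. Fold changes are Het label over wild type. DESeq2 1.42.0, limma 3.58.1 (voom), other scalings and filters, a replicate block, a sex term, removal of GC and length trends and each library left out were alternatives. Values in every library are given for 8 genes fixed by name (Fos, Jun, Junb, Egr1, Ier2, Hspa1a, Hspa1b, Dnajb1) and the 5 tested genes of smallest unadjusted p in each direction. Those for Gata2 and Dusp1 were added, Dusp1 after its values were seen, and up to 4 genes of each wider list are named by p, with those beyond an r of 0.8 to Fos. A few genes of the wider and marker lists are not reported here. Marker lists of megakaryocytes, erythroid cells, macrophages and stroma were also read, and 0 of their genes passed. The 32 genes, the lists and the pairs were chosen with earlier results of these data known.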

Additional observations from a re-analysis of the deposited data

Results flagged for a closer look

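Ier3 in Het-labelled replicate 3 lay far below the other Het-labelled libraries. It measured 0.163 CPM there, from 3 fragments, beside 3.95, 2.45 and 3.17 CPM in replicates 1, 2 and 4. On the log2 CPM scale its gap to the nearest of these took up more of the group's range than Dixon's 95% critical value allows for 4 samples, and on the linear CPM scale it did not. Of 58 groups of 4 libraries checked on the log2 scale, 2 for each tested gene, 1 was singled out, where chance alone gives about 1 in 20. Fos, whose CPM spanned the largest ratio among those of the 29 genes detected in every library, was not singled out in either genotype.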

How the results depend on the processing

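Over 18 alternative treatments of the genotype comparison 0 of the tested genes passed in any, and 0 of all genes passed except with DESeq2, which called 29 of 13968. The count at an unadjusted p under 0.05 was 0 in the main test, 1 with DESeq2 size factors, upper quartile scaling, voom, no filter, a sex term or GC and length trends removed, 2 with DESeq2 or a replicate block, and 0 to 2 with single libraries left out. The genes were Hsp90aa1 (in 7 of 18), Hspa1b (in 6), and Fosl2, Klf4 and Zfp36 (in 1 each). The number higher under the Het label was 10 with voom, 20 with GC and length trends removed and 10 to 25 with libraries left out, 25 being without wild-type replicate 2. The median log2 fold change ran from -0.20 to 0.29.

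Signs turned for several values with wide errors. The log2 fold change of Fos was -1.03 with voom, -0.24 with the replicate block and -1.56 to 1.45 with libraries left out. GC and length removal gave 0.0059 for Jun and 0.22 for Junb. Leaving out libraries gave -0.43 to 0.0658 for Jun, -0.31 to 0.11 for Junb, -1.06 to 0.46 for Egr1, -0.68 to 0.0412 for Ier2 and -0.71 to 0.0387 for Maff. It gave r of -0.37 to 0.0342 for Fos and Fosb, -0.0066 to 0.450 for Fos and Jun, -0.55 to 0.230 for Fos and Junb, -0.0080 to 0.577 for Hspa1a and Dnajb1, and -0.16 to 0.558 for Hspa1a and Hspa8. Library size alone gave 0.0759 for Fos and Junb. The causes were not tested.

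Of the 15 pairs, 8 passed under each of the 6 alternatives that kept all libraries and 4 to 7 with 1 left out, 4 being without Het-labelled replicate 3 and 5 without wild-type replicate 3 or Het-labelled replicate 2; fewer libraries also raise every p. The median r of pairs ran from 0.145 to 0.254, and the median SD from 0.707 to 0.818. Deviations of same-numbered libraries had small correlations, 0.0437, 0.0057, 0.0961 and 0.0215. Of 8 libraries, 4 correlated best with their own number among the 4 libraries of the other genotype. Sex followed the number, replicates 1 and 4 being female and replicates 2 and 3 male in both genotypes. These values do not decide whether same-numbered mice belong together. The labels name no pairs, and the main test used none. The replicate block gave 13 genes higher and no call. Depth limits Egr2, Egr3, Nr4a1, Nr4a3 and Atf3, which had libraries at 0.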

Other observations

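Beside the Fos group, other sets of the 29 genes followed each other across the 8 mice. They were picked after their values were seen and are given as descriptions, with no test. Jun and Maff, which code for a Jun protein and a small Maf protein, had r = 0.953, and Junb had r = 0.679 with Jun and 0.754 with Maff. Wild-type replicate 2 was the highest library in all 3 genes, and wild-type replicate 4 the lowest in Jun and Maff. Nr4a2 had r = 0.877 with Klf4 and 0.835 with Dusp2, and in each of these 3 genes Het-labelled replicate 2 was the highest and Het-labelled replicate 4 the lowest. Nr4a2 and Fos had r = 0.588.

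Among the chaperones, Hsp90aa1 had r = 0.767 with Hspa8 and 0.722 with Hspa1b, whereas Hspa1a had r = 0.466 with Hsp90aa1 and 0.362 with Hspa8, and these 2 values did not pass in the test of 15 pairs. Ier5 had r = 0.669 with Hspa8 and -0.72 with Fos. Ier3 and Hspa1b had r = -0.83, the 1 pair of 406 below -0.8, and both were extreme in Het-labelled replicate 3, where Ier3 had 3 fragments.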
